A study of Mus musculus with 12 samples.

Results

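The genes described here are 40 genes of mitosis and of the G2 to M transition, measured in mouse livers that overexpress YAPS127A or MYC. They were chosen by name, from the known roles of their products, but with earlier results of these data known. All 40 were found among the 48576 gene names of the count files. YAPS127A is a form of the Hippo pathway effector YAP that is active because a serine has been replaced by alanine, and MYC is a transcription factor that drives growth. The YAP mice carried Col-TRE-YAPS127A and Rosa26-LSL-rtTA. They received AAV-TBG-Cre, a viral Cre driven by a hepatocyte promoter, at 8 to 10 weeks of age, so that rtTA was made in the liver. Doxycycline then switched YAPS127A on for 2 weeks (2 libraries) or 4 weeks (3 libraries), and the YAP controls (2 libraries) had the same genotype without induction. The MYC mice carried LAP-tTA, a hepatocyte driver that is active without doxycycline, and TRE-MYC (3 libraries). MYC was switched on at around embryonic day 8, when the pregnant dams were taken off doxycycline, and the offspring's livers were taken 4 weeks after birth. The MYC controls carried LAP-tTA alone on the same doxycycline schedule (2 libraries). The 2 models therefore differ in age, driver and length of induction as well as in the transgene. The labels name hepatocytes as the cell type, while the extraction was of total liver RNA. More dividing cells and more mitotic RNA per cell cannot be told apart in such samples.

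Cells entering mitosis accumulate cyclin A and cyclin B, which switch on the kinase CDK1. Condensed chromosomes attach through kinetochores to a spindle built by motor proteins, and the spindle checkpoint holds the anaphase-promoting complex in check until every chromosome is attached. Cytokinesis then parts the daughter cells. Adult hepatocytes rarely divide, and many are polyploid because earlier divisions ended without cytokinesis. Transcription of these genes in G2 is known to depend on B-MYB and FOXM1 bound with the MuvB complex at a promoter element named the cell cycle genes homology region (CHR), often together with NF-Y at CCAAT boxes.

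Promoter windows from RefSeq (build GRCm38.p6, 250 bases before to 50 bases after the start site) were at hand for 34 of the 40 genes. The letters TTTGAA or TTCGAA of the CHR, read on both strands, lay in the windows of 26 of these 34 (76.5%), against 19.4% of 27025 genes with a window. CCAAT was present in 25 of 34 (73.5%), against 37.9% of all windows. Both a CHR and CCAAT were present in 22 of 34 (64.7%), against 7.70% of all windows (TTCGAA reads the same on both strands, and neighbouring matches may share bases). The MYC element CACGTG was found in 3 of 34 (8.82%), against 7.24% of all windows, and the TEAD element GGAATG, the DNA motif of the factors that carry YAP, in 6 of 34 (17.6%), against 14.6%. A match describes the letters only. The windows of 3 genes that rose with YAPS127A, and that of Nek2, which passed the test in no comparison, are shown 5′ to 3′ on the gene's strand with CHR and CCAAT matches of either strand in capitals. Mki67 lies on the minus strand at chr7:135716330-135716629, Ccnb2 on the minus strand at chr9:70421505-70421804, Cdk1 on the minus strand at chr10:69352863-69353162, and Nek2 on the plus strand at chr1:191821223-191821522.
Mki67: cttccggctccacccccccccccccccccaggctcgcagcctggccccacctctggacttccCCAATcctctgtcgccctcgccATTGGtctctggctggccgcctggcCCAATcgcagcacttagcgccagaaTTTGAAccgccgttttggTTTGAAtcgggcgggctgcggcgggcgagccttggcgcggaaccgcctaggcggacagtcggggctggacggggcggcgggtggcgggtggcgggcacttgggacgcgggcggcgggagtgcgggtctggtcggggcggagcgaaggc
Ccnb2: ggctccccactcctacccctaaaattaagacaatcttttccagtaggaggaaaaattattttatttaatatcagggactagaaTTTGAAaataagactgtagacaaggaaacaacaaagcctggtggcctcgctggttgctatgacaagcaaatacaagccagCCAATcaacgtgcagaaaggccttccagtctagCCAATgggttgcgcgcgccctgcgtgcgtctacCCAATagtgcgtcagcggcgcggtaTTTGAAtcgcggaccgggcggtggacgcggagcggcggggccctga
Cdk1: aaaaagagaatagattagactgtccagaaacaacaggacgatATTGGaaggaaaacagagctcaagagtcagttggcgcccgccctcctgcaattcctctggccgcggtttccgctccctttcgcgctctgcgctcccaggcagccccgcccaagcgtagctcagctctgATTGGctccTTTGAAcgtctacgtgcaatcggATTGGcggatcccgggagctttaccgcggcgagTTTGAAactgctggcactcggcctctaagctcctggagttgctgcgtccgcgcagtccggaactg
Nek2: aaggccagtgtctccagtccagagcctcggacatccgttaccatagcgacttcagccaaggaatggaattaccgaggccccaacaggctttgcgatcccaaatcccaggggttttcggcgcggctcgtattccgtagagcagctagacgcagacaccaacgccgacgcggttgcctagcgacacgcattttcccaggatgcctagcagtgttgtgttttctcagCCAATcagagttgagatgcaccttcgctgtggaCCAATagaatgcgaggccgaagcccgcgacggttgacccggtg
Mki67 and Cdk1 hold 2 CHR matches each upstream of the start site, at 98 and 116 bases (Mki67) and at 15 and 71 bases (Cdk1). Ccnb2 holds 3 CCAAT boxes and 2 CHR matches. Nek2 holds 2 CCAAT boxes and no CHR match. The other genes that passed in no comparison, Aurka, Ndc80 and Hmmr, each hold a CHR match. Of the 26 genes with a CHR, 22 passed at 2 weeks of YAPS127A, 21 at 4 weeks and 10 with MYC. Of the 8 without, 7, 7 and 1 passed. Over all genes tested, 15.1%, 18.1% and 9.76% passed as higher. The 26 genes with a CHR and the 8 without had median fitted log2 fold changes of 3.77 and 3.42 at 2 weeks of YAPS127A, 3.78 and 3.44 at 4 weeks, and 2.24 and 2.26 with MYC.

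The 12 libraries held 12511170 to 17690798 counts. The 40 genes took between 0.0032% (407 counts, YAP control replicate 2) and 0.4401% (55061 counts, MYC replicate 2) of a library. Levels are given as CPM, the counts of a gene relative to its library's total after TMM scaling, always in the order replicate 1, 2 and 3. All 40 genes passed the low-count filter and entered the test of 17964 genes (edgeR's quasi-likelihood test, Benjamini-Hochberg adjustment, called at an adjusted p under 0.05). The labels do not say that the libraries of a group came from separate animals. The p-values measure the spread between these libraries, which may be technical in groups other than the 2-week pair, whose sex patterns (below) differ. Some libraries stood apart from their groups. YAP 4-week replicate 1 and MYC replicate 1 each differed from their group mates by a chi-square per degree of freedom of 75.9 to 107, against 20.7 and 36.7 between the mates. By Xist and Y-linked RNA, both YAP controls, YAP 2-week replicate 1 and all 5 libraries of the MYC model had the male pattern, and YAP 2-week replicate 2 and all 3 YAP 4-week libraries the female pattern. No 4-week library shared the pattern of the controls, so a sex term rests on the 2-week pair alone.

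With 2 weeks of YAPS127A the mitotic genes were much higher than in the uninduced livers. Of the 40 genes, 35 were called higher and none lower, where 15.1% of all genes tested were called higher. The median fitted fold change was 13.4 (log2 3.74), against a log2 median of 0.10 over all genes tested. Every gene was higher in both induced libraries than in both controls (40 of 40, against 36.6% of all genes). The 5 genes not called had fitted log2 fold changes between 1.40 (Aurka) and 3.84 (Hmmr). After 4 weeks, 34 of the 40 were called higher and none lower, against 18.1% of all genes called higher, and the median fold was again 13.4. That 4-week fold rested on YAP 4-week replicate 1, whose summed level was 1205 CPM against 253 and 412 CPM in its group mates. Without it the median fold was 7.196, the mean of Mki67 at 4 weeks was 84.95 CPM and that of Cdc20 5.14 CPM, and 33 of the 40 were called. The 2-week median fold was 8.58 without YAP 2-week replicate 2. The 4-week libraries did not overlap the controls for 38 of the 40, against 33.5% of all genes, and the exceptions were Nek2 and Ndc80. Leaving out either YAP control lowered the calls to 8 or 9 at 2 weeks and to 8 or 11 at 4 weeks. With the sex pattern as a term, 16 were called at 2 weeks and 0 at 4 weeks. Without the female-pattern 2-week library, 14 of 40 were called at 2 weeks.

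**Figure D1:**
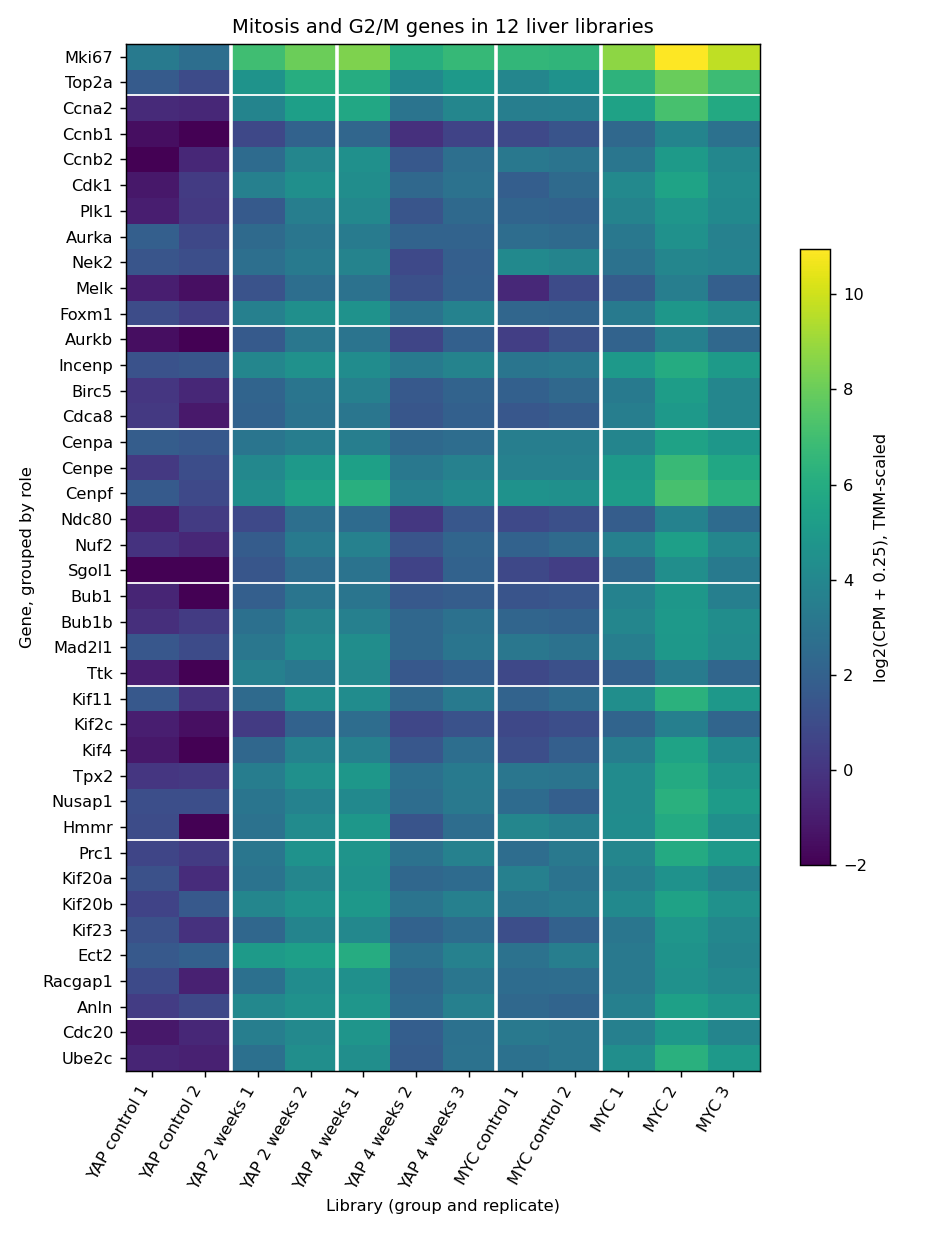
Level of each of the 40 genes (rows, grouped by role and split by thin white lines) in each of the 12 libraries (columns, groups split by thick white lines), as log2(CPM + 0.25). The YAP control columns are the darkest, with a summed level of 43.2 to 58.1 CPM, and MYC replicate 2 is the brightest, with 3860 CPM.

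MYC livers also had higher levels of many of these genes, from a higher starting point. Of the 40, 13 were called higher and none lower, where 9.76% of all genes tested were called higher. The median fitted fold change was 4.72 (log2 2.24), against a log2 median of 0.02 over all genes. The 3 MYC libraries lay above both MYC controls for 36 of the 40 genes, against 26.8% of all genes, and the exceptions were Ccnb2, Kif20a, Ect2 and Nek2. The 13 called genes were Mki67, Top2a, Cdk1, Foxm1, Bub1, Bub1b, Incenp, Cdca8, Sgol1, Kif4, Kif11, Nusap1 and Anln. All of them except Kif11 were also called at both YAP times. These values moved with single libraries. The median fold was 3.01 without MYC replicate 2. The count of calls was 1, Incenp, without either MYC control, 3 without MYC replicate 2, 23 without MYC replicate 1, 29 without YAP 4-week replicate 1 and 20 without YAP 4-week replicate 2, which enter through the shared spread. DESeq2 called 30 of the 40, and scaling by total counts alone, which moved the log2 median of all genes to 0.43, called 28.

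**Figure D2:**
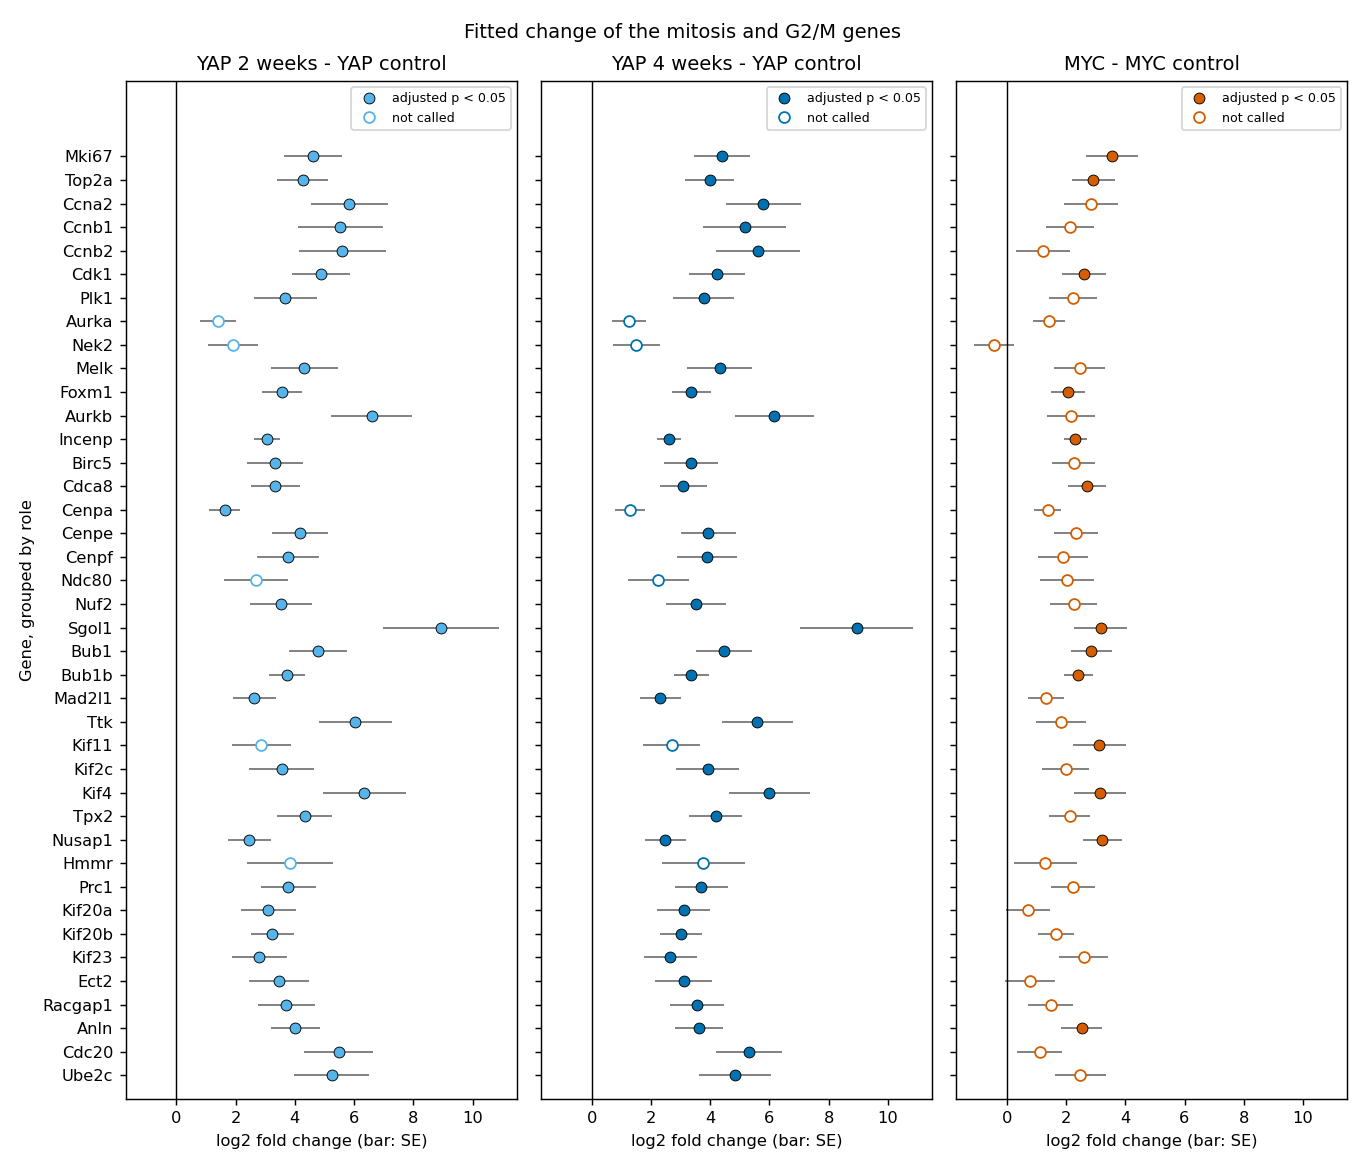
Fitted log2 fold change of each gene (points, bars show the standard error) for 2 weeks of YAPS127A, 4 weeks of YAPS127A and MYC, each against its own controls. Filled points passed an adjusted p of 0.05 (35, 34 and 13 genes), and the Sgol1 value in the YAP panels depends on the fit's prior count because both controls had 0 counts.

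Mki67 encodes the Ki-67 antigen, which coats mitotic chromosomes, and Top2a encodes topoisomerase II alpha, which untangles sister DNA. Mki67 stood at 9.95 and 6.15 CPM in the YAP controls, at 126 and 267 CPM after 2 weeks and at 345, 68.3 and 102 CPM after 4 weeks. In the MYC controls it stood at 94.9 and 88.5 CPM, and with MYC at 432, 1971 and 847 CPM. The induced libraries were above their controls without overlap in both models, and the MYC controls lay within the range of the 4-week YAP livers. Mki67 rose 24.3-fold at 2 weeks (log2 4.60, SE 0.97, edgeR adjusted p = 0.00782), by log2 4.41 at 4 weeks (SE 0.94, edgeR adjusted p = 0.00673) and 11.8-fold with MYC (log2 3.56, SE 0.88, edgeR adjusted p = 0.0228). Top2a stood at 2.995 and 1.70 CPM in the YAP controls, at 25.2 and 66.2 CPM after 2 weeks and at 63.3, 17.6 and 31.9 CPM after 4 weeks. Its MYC controls held 15.4 and 24.3 CPM and its MYC livers 81.4, 256 and 116 CPM, again without overlap. Top2a also rose in all 3 comparisons, by log2 4.27 (SE 0.86), 3.99 (SE 0.83) and 2.92 (SE 0.73).

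Among the 9 cyclins, entry kinases and their regulators, 7 rose at each YAP time and 2, Cdk1 and Foxm1, rose with MYC. Over all genes tested, 15.1%, 18.1% and 9.76% were called higher at 2 weeks, at 4 weeks and with MYC. These shares stand beside the counts of each role below. Cdk1, the kinase that drives entry into mitosis, stood at 0.193 and 0.955 CPM in the YAP controls, at 12.2 and 21.3 CPM after 2 weeks and at 20.3, 4.93 and 7.17 CPM after 4 weeks. It stood at 3.36 and 5.38 CPM in the MYC controls and at 16.6, 44.8 and 18.8 CPM with MYC. Every induced library was above its controls. Cdk1 rose by log2 4.88 at 2 weeks (SE 0.97, edgeR adjusted p = 0.0054), by 4.24 at 4 weeks (SE 0.94, edgeR adjusted p = 0.00744) and by 2.60 with MYC (SE 0.74, edgeR adjusted p = 0.0359). Ccna2, cyclin A2, shares 12.5% of its exon length with Exosc9, which was called in none of the 3 comparisons. It was near 0 in the YAP controls (0.483 and 0.424 CPM) and reached 14.2 and 38.7 CPM after 2 weeks and 54.4, 7.63 and 15.0 CPM after 4 weeks. It rose by log2 5.84 (SE 1.30) and 5.79 (SE 1.27). In MYC livers Ccna2 stood at 44.4, 145 and 58.8 CPM against 11.2 and 11.8 CPM in the controls, a difference of log2 2.84 (SE 0.90) that did not pass (edgeR adjusted p = 0.057).

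Ccnb1 and Ccnb2 encode the B cyclins that partner CDK1. Ccnb1 had 1 count over both YAP controls and 87 counts over the 2-week libraries, a depth-adjusted ratio of 55.8 with a 95% counting interval of 9.75 to 2228. By library, Ccnb1 stood at 0.0966 and 0 CPM in these controls, at 1.49 and 3.95 CPM after 2 weeks and at 4.51, 0.631 and 1.28 CPM after 4 weeks. The controls were at the edge of detection and all induced libraries above it. Ccnb2 stood at 0 and 0.424 CPM in the YAP controls, at 5.60 and 15.0 CPM after 2 weeks and at 22.2, 2.75 and 6.34 CPM after 4 weeks. Both cyclins were called higher at each YAP time, Ccnb1 by log2 5.54 (SE 1.43) and 5.18 (SE 1.40) and Ccnb2 by 5.61 (SE 1.47) and 5.61 (SE 1.43). With MYC, Ccnb2 stood at 8.34, 33.4 and 15.8 CPM, and the lowest of these fell inside the range of its controls (8.75 and 7.64 CPM). Ccnb1 stood at 4.94, 14.1 and 6.91 CPM with MYC against 1.59 and 2.34 CPM, with no overlap. Ccnb2 differed there by log2 1.22 (SE 0.91) and Ccnb1 by 2.13 (SE 0.82), and neither passed.

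Foxm1, the transcription factor of the G2 programme, rose in all 3 comparisons. It stood at 1.74 and 1.06 CPM in the YAP controls, at 12.1 and 21.3 CPM after 2 weeks and at 23.7, 7.34 and 12.9 CPM after 4 weeks, and at 4.51 and 4.21 CPM in the MYC controls against 9.65, 28.9 and 16.6 CPM with MYC. Its changes were log2 3.56 (SE 0.68, edgeR adjusted p = 0.00397), 3.37 (SE 0.66, edgeR adjusted p = 0.00349) and 2.07 (SE 0.58, edgeR adjusted p = 0.0312). Plk1, a polo kinase of spindle and cytokinesis, stood at 0.290 and 0.849 CPM in the YAP controls, at 2.98 and 11.5 CPM after 2 weeks and at 16.0, 2.41 and 5.06 CPM after 4 weeks. It rose by log2 3.68 (SE 1.07) and 3.78 (SE 1.03) with YAPS127A, and without overlap. Melk, a kinase of dividing cells, stood at 0.290 and 0.106 CPM in those controls, at 2.27 and 6.04 CPM after 2 weeks and at 6.99, 1.95 and 3.73 CPM after 4 weeks, and rose by 4.31 (SE 1.14) and 4.33 (SE 1.10). With MYC, Plk1 was at 13.6, 27.2 and 17.5 CPM against 4.33 and 3.90 CPM, and Melk at 3.10, 11.5 and 3.60 CPM against 0.442 and 1.72 CPM. Neither passed there, at log2 2.24 (SE 0.82) and 2.46 (SE 0.86). Aurka and Nek2, kinases of the centrosome, passed in no comparison. Aurka was at 3.58 and 1.49 CPM in the YAP controls and at 4.07 to 10.1 CPM in the 5 induced libraries, which did not overlap the controls. Its fitted differences were log2 1.40 (SE 0.60), 1.26 (SE 0.56) and, with MYC, 1.42 (SE 0.54; 8.93, 22.8 and 12.6 CPM against 5.83 and 5.22 CPM). Nek2 was at 2.42 and 1.91 CPM in the YAP controls, at 6.38 and 9.92 CPM after 2 weeks and at 13.5, 1.55 and 3.50 CPM after 4 weeks. In the MYC controls Nek2 stood at 17.2 and 14.3 CPM and with MYC at 7.09, 15.2 and 12.9 CPM. It was the only gene of the 40 with a fitted log2 fold change below 0 in that comparison (-0.43, SE 0.68).

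The chromosomal passenger complex corrects faulty attachments and moves to the midzone in anaphase. It comprises the kinase Aurkb with Incenp, Birc5 (survivin) and Cdca8 (borealin), and all 4 genes rose at both YAP times. Incenp, its scaffold, stood at 2.13 and 2.55 CPM in the YAP controls, at 15.4 and 23.4 CPM after 2 weeks and at 19.7, 9.86 and 13.5 CPM after 4 weeks. With MYC it stood at 31.7, 62.0 and 32.8 CPM against 7.96 and 8.97 CPM in the controls. At 4 weeks and with MYC its highest and lowest libraries lay closer together than for any other of the 40 genes, and Incenp had the smallest adjusted p of the 40 in each comparison. It rose by log2 3.05 (SE 0.44, edgeR adjusted p = 0.000774), 2.61 (SE 0.42, edgeR adjusted p = 0.00108) and 2.31 (SE 0.38, edgeR adjusted p = 0.00288). Aurkb had 1 count over both YAP controls and 182 over the 2-week libraries, a ratio of 117 with a 95% counting interval of 20.7 to 4634. Per library Aurkb stood at 2.98 and 8.37 CPM after 2 weeks and at 7.75, 1.38 and 3.62 CPM after 4 weeks, against 0.0966 and 0 CPM. Aurkb rose by log2 6.59 (SE 1.37) and 6.17 (SE 1.34). Birc5 stood at 0.773 and 0.424 CPM in the YAP controls, at 4.32 and 7.89 CPM after 2 weeks and at 12.01, 2.81 and 4.12 CPM after 4 weeks. Its induced libraries all lay above the controls. Birc5 and Cdca8 rose by log2 3.32 (SE 0.94) and 3.34 (SE 0.82) at 2 weeks, and by 3.36 (SE 0.90) and 3.09 (SE 0.79) at 4 weeks. With MYC, Cdca8 rose by log2 2.71 (SE 0.66). Aurkb stood there at 4.05, 11.99 and 4.93 CPM against 1.06 and 2.03 CPM, and Birc5 at 9.83, 37.2 and 14.9 CPM against 3.62 and 4.99 CPM. Both were free of overlap, but their differences of 2.16 (SE 0.81) and 2.25 (SE 0.73) did not pass.

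Of the 6 kinetochore and centromere genes, 5 rose at 2 weeks, 4 at 4 weeks and 1, Sgol1, with MYC. That single MYC call stands beside 9.76% of all genes. Sgol1 encodes shugoshin, which protects cohesin at centromeres, and is named Sgo1 in RefSeq. It had 0 counts in both YAP controls, 2.48 and 5.92 CPM after 2 weeks and 7.50, 1.26 and 4.00 CPM after 4 weeks. Against a floor of 3 counts in each control (a mean of 0.304 CPM), Sgol1 was at least 13.8-fold higher at 2 weeks and at least 13.99-fold higher at 4 weeks. It stood at 1.50 and 1.09 CPM in the MYC controls and at 4.88, 20.8 and 9.40 CPM with MYC, a rise of log2 3.16 (SE 0.89, edgeR adjusted p = 0.0361). Cenpe, a kinetochore motor, stood at 0.870 and 1.80 CPM in the YAP controls, at 16.2 and 31.9 CPM after 2 weeks and at 40.2, 8.83 and 12.6 CPM after 4 weeks. All induced libraries were above the controls. Cenpe and Cenpf, a protein of the outer kinetochore, rose by log2 4.17 (SE 0.95) and 3.76 (SE 1.05) at 2 weeks and by 3.95 (SE 0.92) and 3.90 (SE 1.02) at 4 weeks. Nuf2, a subunit of the microtubule-binding NDC80 complex, rose by log2 3.52 at each time (SE 1.05 and 1.01). Ndc80 itself was at 0.290 and 0.955 CPM in the YAP controls, at 1.56 and 6.40 CPM after 2 weeks and at 5.53, 0.803 and 2.56 CPM after 4 weeks, so that the 4-week livers overlapped the controls. It differed by log2 2.69 (SE 1.08) and 2.25 (SE 1.03) and did not pass. Cenpa, the histone H3 variant that marks centromeres, moved least of those called. It was at 3.29 and 2.76 CPM in the YAP controls and at 7.79 and 10.9 CPM after 2 weeks (log2 1.63, SE 0.53, edgeR adjusted p = 0.0397). After 4 weeks it was at 11.4, 5.10 and 5.90 CPM, and the difference of log2 1.30 (SE 0.49) did not pass. With MYC, Cenpa stood at 14.7, 44.5 and 29.0 CPM against 11.2 and 11.3 CPM (log2 1.38, SE 0.45), Cenpe at 31.5, 108 and 52.2 CPM against 12.7 and 12.5 CPM (log2 2.34, SE 0.75), and Ndc80 at 3.34, 12.97 and 5.51 CPM against 1.59 and 1.95 CPM (log2 2.03, SE 0.90). None of the 3 passed, nor did Cenpf (log2 1.89, SE 0.84) or Nuf2 (log2 2.26, SE 0.80), although no MYC library of the 5 genes overlapped the controls.

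The spindle checkpoint genes Bub1, Bub1b (BUBR1), Ttk (MPS1) and Mad2l1 (MAD2) rose at both YAP times, 4 of 4, and Bub1 and Bub1b also with MYC. Bub1b stood at 0.580 and 0.955 CPM in the YAP controls, at 6.59 and 13.8 CPM after 2 weeks and at 12.1, 4.82 and 6.84 CPM after 4 weeks. In the MYC controls it stood at 4.42 and 3.90 CPM and with MYC at 15.0, 31.8 and 20.0 CPM. No induced library overlapped its controls. Bub1b rose by log2 3.73 (SE 0.61, edgeR adjusted p = 0.0015), 3.36 (SE 0.59, edgeR adjusted p = 0.00172) and 2.42 (SE 0.49, edgeR adjusted p = 0.0078). Bub1 stood at 0.387 and 0 CPM in the YAP controls, at 3.47 and 8.01 CPM after 2 weeks and at 7.81, 2.87 and 3.34 CPM after 4 weeks, and at 2.30 and 2.57 CPM in the MYC controls against 13.2, 28.4 and 11.7 CPM with MYC. It rose by log2 4.78 (SE 0.97), 4.48 (SE 0.94) and 2.86 (SE 0.68). Ttk had 3 counts over both YAP controls and 319 over the 2-week libraries, a ratio of 68.2 with a 95% counting interval of 23.1 to 332. Ttk was unusual in its order at 2 weeks, 12.2 CPM in replicate 1 and 8.79 CPM in replicate 2, where the other 39 genes were higher in replicate 2. After 4 weeks it was at 16.6, 2.75 and 3.67 CPM, against 0.290 and 0 CPM in the controls, and it rose by log2 6.04 (SE 1.23) and 5.59 (SE 1.20). With MYC, Ttk stood at 3.81, 10.1 and 4.64 CPM against 1.50 and 1.95 CPM and did not pass (log2 1.83, SE 0.84). Mad2l1 stood at 2.61 and 1.70 CPM in the YAP controls, at 8.64 and 18.2 CPM after 2 weeks and at 20.1, 4.703 and 7.84 CPM after 4 weeks, rises of log2 2.63 (SE 0.73) and 2.33 (SE 0.69). With MYC it was at 11.4, 29.6 and 18.4 CPM against 8.57 and 7.17 CPM (log2 1.33, SE 0.62) and did not pass.

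Spindle motors and assembly factors counted 6 genes, of which 4 rose at each YAP time and 3 with MYC. Kif11, the motor that pushes spindle poles apart, was the only gene of the 40 called with MYC but at neither YAP time. Its YAP controls lay far apart at 2.71 and 0.636 CPM, against 5.24 and 19.6 CPM after 2 weeks and 19.1, 4.93 and 9.45 CPM after 4 weeks. In the MYC model it stood at 4.07 and 5.69 CPM in the controls and at 21.0, 77.3 and 29.9 CPM with MYC. Kif11 rose there by log2 3.12 (SE 0.89, edgeR adjusted p = 0.0395), and the YAP differences were 2.87 (SE 1.01) and 2.71 (SE 0.96). The difference between its MYC and 4-week YAP changes was log2 0.41 (SE 1.26) and did not pass. Nusap1, which bundles spindle microtubules, rose by log2 2.46 (SE 0.73) and 2.49 (SE 0.69) with YAPS127A and by 3.22 (SE 0.66, edgeR adjusted p = 0.00985) with MYC. Tpx2, which activates Aurora A on the spindle, stood at 0.773 and 0.849 CPM in the YAP controls, at 10.8 and 22.1 CPM after 2 weeks and at 28.5, 6.60 and 9.57 CPM after 4 weeks. The rises were log2 4.34 (SE 0.92) and 4.18 (SE 0.89). With MYC it was at 18.7, 59.2 and 26.1 CPM against 8.22 and 7.72 CPM, a difference of log2 2.12 (SE 0.70) that did not pass. Kif2c, a microtubule depolymerase, was the lowest motor after induction, between 0.921 and 5.97 CPM with YAPS127A against 0.290 and 0.106 CPM, and rose by log2 3.55 (SE 1.11) and 3.93 (SE 1.06). Kif4, a chromosome-bound motor, rose in all 3 comparisons and had 2 counts over both YAP controls. Its exons share 15.1% of their length with Pdzd11, which was called in none of the 3. Hmmr, a spindle-pole protein, differed by log2 3.84 (SE 1.45) and 3.77 (SE 1.40) with YAPS127A and by 1.31 (SE 1.07) with MYC and passed in no comparison.

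All 7 cytokinesis genes rose at both YAP times, against 15.1% and 18.1% of all genes. With MYC 1 of the 7, Anln, rose, which is near the 9.76% of all genes. Anln encodes anillin, the scaffold of the contractile ring. It stood at 0.966 and 1.49 CPM in the YAP controls, at 16.4 and 23.3 CPM after 2 weeks and at 27.7, 5.56 and 12.2 CPM after 4 weeks. With MYC it stood at 12.3, 41.2 and 25.7 CPM against 4.86 and 4.29 CPM in the controls. Anln was above its controls in every induced library, by log2 4.01 (SE 0.83), 3.62 (SE 0.80) and 2.53 (SE 0.69, edgeR adjusted p = 0.0315). Ect2, the exchange factor that activates RhoA at the cleavage site, stood at 2.80 and 3.71 CPM in the YAP controls, at 32.5 and 39.6 CPM after 2 weeks and at 64.8, 6.94 and 12.5 CPM after 4 weeks. Its MYC controls held 7.16 and 11.5 CPM and its MYC livers 9.05, 25.0 and 13.9 CPM, which overlapped. Ect2 rose by log2 3.47 (SE 1.02) and 3.10 (SE 0.97) with YAPS127A and differed by 0.77 (SE 0.85) with MYC. Racgap1 and Kif23, which form the centralspindlin complex, rose by log2 3.71 (SE 0.96) and 2.80 (SE 0.93) at 2 weeks. Prc1, which bundles midzone microtubules, stood at 1.35 and 0.955 CPM in the YAP controls, at 8.08 and 23.9 CPM after 2 weeks and at 26.2, 7.17 and 12.5 CPM after 4 weeks. Prc1 rose by log2 3.78 (SE 0.93) and 3.71 (SE 0.90), and its exons share 11.1% of their length with Rccd1, which was called in neither comparison. With MYC it was at 15.3, 60.7 and 30.9 CPM against 5.83 and 9.20 CPM (log2 2.24, SE 0.74) and did not pass. Racgap1 (log2 1.48, SE 0.76), Kif23 (2.60, SE 0.83), Kif20b (1.67, SE 0.61) and Kif20a (0.71, SE 0.73) did not pass with MYC either. Kif20b, a kinesin of the midbody, rose by log2 3.24 (SE 0.73) and 3.01 (SE 0.70). Kif20a, a kinesin of the midzone, rose by log2 3.11 at each YAP time (SE 0.93 and 0.90), but 29.3% of its exon length overlaps Cdc23 on the opposite strand. Cdc23 was called higher too (log2 1.05 and 0.98), and the strand setting of the counting was not given in the sources used here.

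The last pair act with the anaphase-promoting complex, the ligase that ends mitosis. Cdc20, its activator, stood at 0.193 and 0.424 CPM in the YAP controls, at 11.3 and 16.6 CPM after 2 weeks and at 27.1, 3.44 and 6.84 CPM after 4 weeks. It stood at 9.28 and 8.19 CPM in the MYC controls and at 12.3, 30.1 and 14.3 CPM with MYC. The MYC controls thus lay within the range of the 4-week YAP livers and below both 2-week libraries. Cdc20 rose by log2 5.48 (SE 1.16, edgeR adjusted p = 0.00732) and 5.31 (SE 1.13, edgeR adjusted p = 0.00624) with YAPS127A and differed by 1.11 (SE 0.75) with MYC. Ube2c, its ubiquitin-conjugating enzyme, stood at 0.387 and 0.318 CPM in the YAP controls, at 6.52 and 20.8 CPM after 2 weeks and at 20.8, 3.15 and 7.17 CPM after 4 weeks. The MYC controls held 6.89 and 8.19 CPM and the MYC livers 21.1, 73.6 and 32.1 CPM. No induced library overlapped its controls for either gene. Ube2c rose by log2 5.24 (SE 1.26) and 4.84 (SE 1.22) with YAPS127A and differed by 2.48 (SE 0.86) with MYC, where neither gene passed. The exons of Ube2c share 22.8% of their length with Tnnc2, a muscle gene at 0.283 and 0.418 CPM in the 2-week libraries and at 0 in the others.

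**Figure D3:**
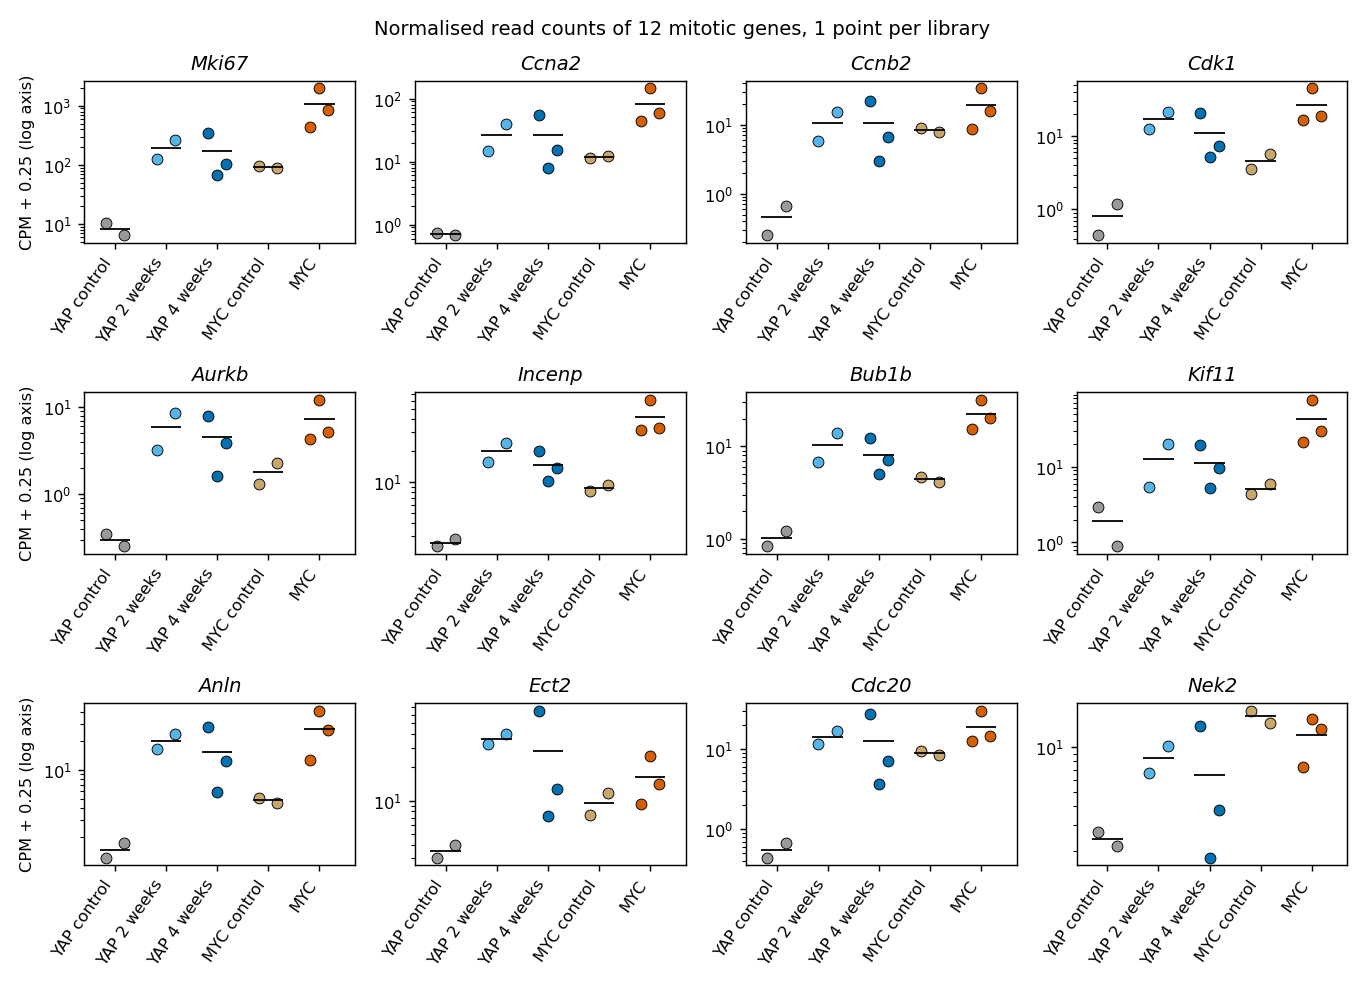
CPM + 0.25 on a log axis for 12 of the genes, with 1 point per library and a horizontal bar at the group mean. The MYC controls (tan) lie above the YAP controls (grey) in every panel, and YAP 4-week replicate 1 lies above the other 4-week libraries, as for Mki67 at 345 CPM against 68.3 and 102 CPM.

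Fitted levels at 4 weeks and 2 weeks of YAPS127A were close with all libraries in, but this rested on YAP 4-week replicate 1. The 40 genes summed to 1205 CPM in that library. Its group mates, at 253 and 412 CPM, both lay below the 2-week libraries at 467 and 958 CPM. None of the 40 genes was called in either direction by edgeR, and none reached an unadjusted p under 0.05. DESeq2 also called 0, and edgeR again called 0 without YAP 4-week replicate 1. Over all genes 0.0% were called higher and 0.0612% lower. Fitted log2 differences ran from -0.64 (Cdk1) to 0.37 (Kif2c), with a median of -0.19. The spread at 4 weeks limits this comparison, since the highest library was a median of 4.59 times the lowest over the 40 genes.

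The changes with MYC and with YAPS127A were set against each other by the difference of their fitted log2 fold changes. Against 4 weeks of YAPS127A the MYC change was smaller for 36 of 40 genes, with a median difference of log2 -1.61, but edgeR called 0 genes. Against 2 weeks it was smaller for 37 of 40, with a median of -1.70, and edgeR again called 0. At an unadjusted p under 0.05 there were 4 genes in each case, Ccnb2, Aurkb, Cdc20 and Ttk, all smaller with MYC. Their YAP controls held few counts, 0 and 4 for Ccnb2, 1 and 0 for Aurkb, 2 and 4 for Cdc20 and 3 and 0 for Ttk. This limits the precision of their YAP changes and so of these differences. DESeq2 called 3 of the 4 genes lower in each case, Ccnb2, Cdc20 and Ttk. Over all genes edgeR called 3.15% higher and 4.33% lower against 4 weeks, and 2.59% and 3.78% against 2 weeks. The difference was log2 -4.20 for Cdc20 (SE 1.36, edgeR adjusted p = 0.0928), -4.39 for Ccnb2 (SE 1.72, edgeR adjusted p = 0.155) and -0.30 for Incenp (SE 0.53) against 4 weeks. Without YAP 4-week replicate 1 edgeR called 1 gene against 4 weeks and 4 against 2 weeks, and without replicate 2 it called 1 in each case.

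The control livers of the 2 models started from different levels. The 40 genes summed to 58.1 and 43.2 CPM in the YAP controls and to 353 and 361 CPM in the MYC controls. The YAP mice were induced as adults and the MYC controls were collected 4 weeks after birth, so age and genotype both differ. All 40 fitted differences were positive, with a median of log2 2.89 (7.41-fold), and both MYC controls lay above both YAP controls for 39 genes, against 28.3% of all genes. Kif23 was the exception. No gene passed in edgeR, where 1.09% of all genes were called higher, although 33 of the 40 had an unadjusted p under 0.05 and DESeq2 called 27 higher. Incenp came nearest (log2 1.86, SE 0.44, edgeR adjusted p = 0.0569). Without YAP 4-week replicate 1, edgeR called 10 of the 40.

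By mean level most of the 40 genes were higher in the MYC livers than in the YAP livers. The fitted fold changes were smaller with MYC for most of them, but edgeR called none of those differences. The levels themselves were not tested between the models. The mean CPM with MYC was above that at 2 weeks of YAPS127A for 38 of 40 genes and above that at 4 weeks for 38 of 40, with Ttk and Ect2 the exceptions each time. The ratio of means had a median of 2.21 against 2 weeks and 2.48 against 4 weeks. It ran from 0.443 and 0.570 (Ect2) to 5.52 and 6.31 (Mki67). Every MYC library lay above every 2-week library for 18 of the 40 genes, against 26.0% of all genes tested, and below them for 1, Ect2, against 26.9%. Every MYC library lay above every 4-week library for 11 of the 40, against 20.9% of all genes, and below them for none, against 21.5%. These levels leaned on single libraries. Without MYC replicate 2 the mean with MYC was above that at 2 weeks for 32 genes and above that at 4 weeks for 36, the median ratios were 1.6 and 1.65, and the ratio for Mki67 was 3.26 and 3.73. Aurkb, Cdc20, Foxm1, Racgap1, Anln and Melk then also lay below their 2-week means, and Foxm1 and Melk below their 4-week means. Without YAP 2-week replicate 2 the median ratio against 2 weeks was 3.87 and the count without overlap 36. Without YAP 4-week replicate 1 the median ratio against 4 weeks was 4.37, that count was 37, and all 40 means were higher with MYC. Without MYC replicate 1 the counts without overlap were 29 and 21. Set per kilobase of exon, Mki67 had the highest mean level of the 40 genes in all induced groups and in the MYC controls, at 19.5, 17.1, 108 and 9.12 CPM per kilobase for 2 weeks, 4 weeks, MYC and MYC controls. Behind Mki67 came Cdc20 (7.47), Ccnb2 (6.73) and Ect2 (6.70) at 2 weeks, and Ccna2 (20.2), Top2a (16.7) and Ube2c (16.3) with MYC. In the YAP controls Aurka led at 1.00 CPM per kilobase, with Mki67 at 0.800, Ect2 at 0.605 and Incenp at 0.540. Mki67 was separate from the next gene in 3 groups. Its libraries held 12.5 and 26.5 CPM per kilobase at 2 weeks against 6.07 and 8.86 for Cdc20, 42.9 to 196 with MYC against 10.9 to 35.4 for Ccna2, and 8.80 and 9.44 in the MYC controls against 4.99 and 5.72 for Ccnb2. Most other neighbours overlapped: of 39 neighbouring pairs in each order, the libraries did not overlap for 1 in the YAP controls, 1 at 2 weeks, 0 at 4 weeks, 1 with MYC and 7 in the MYC controls. Kif2c, Ndc80 and Ccnb1 were at the low end of the order in both YAP groups, between 0.456 and 0.731 CPM per kilobase.

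The replicates of each induced group kept the same order over nearly all of these genes. YAP 4-week replicate 1 was the highest and replicate 2 the lowest of their group for 40 of 40 genes, where 40.07% and 31.1% of all genes tested had those orders. MYC replicate 2 was the highest of its group for 40 of 40, and replicate 1 the lowest for 39, with Bub1 the exception, against 30.29% and 37.35% of all genes. YAP 2-week replicate 2 was the higher for 39 of 40, against 50.58% of all genes. The within-group SD of log2 CPM had a median over the 40 genes of 0.76 at 2 weeks, 1.10 at 4 weeks and 0.83 with MYC, against 0.25, 0.33 and 0.33 over all genes. In the YAP controls the median SD was 0.54 against 0.22 for all genes, and in the MYC controls it was 0.19 against 0.17. At 4 weeks the ratio of the highest to the lowest library ran from 2.00 (Incenp) to 12.7 (Hmmr). With MYC it ran from 1.96 (Incenp) to 4.56 (Mki67), with a median of 3.04. MYC replicate 2 was the highest of all 12 libraries for 37 genes, YAP 4-week replicate 1 for 2 and MYC control replicate 1 for 1, Nek2.

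**Figure D4:**
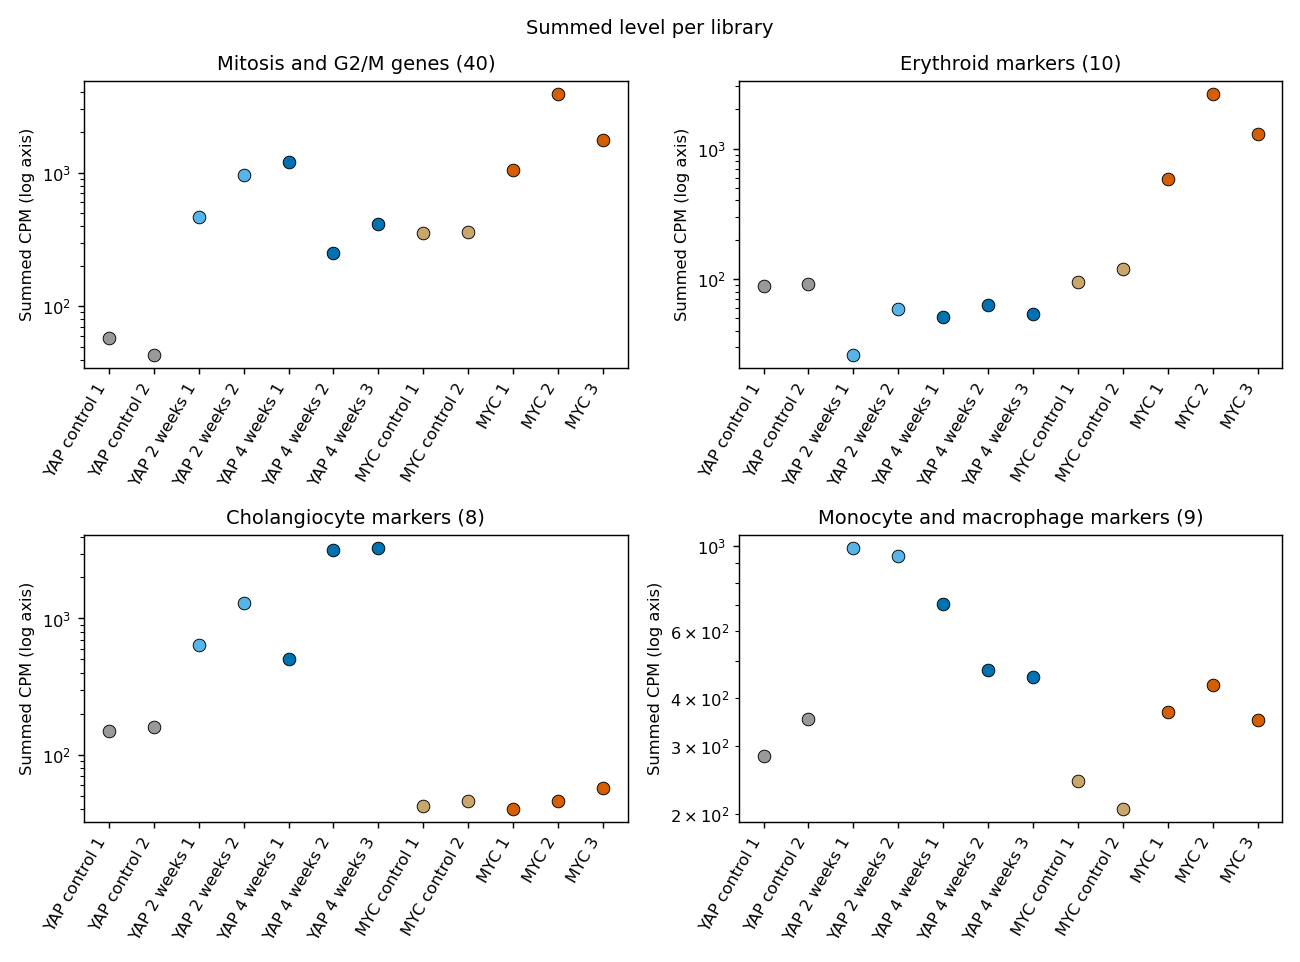
Summed CPM per library, on log axes, of the 40 mitosis and G2/M genes and of markers of erythroid cells, cholangiocytes and monocytes and macrophages. MYC replicate 2 is highest for both the mitotic genes (3860 CPM) and the erythroid markers (2618 CPM), and YAP 4-week replicate 1 is highest of its group for the mitotic genes (1205 CPM) and lowest for the cholangiocyte markers (504 CPM).

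Markers of other cell types also differed between groups and libraries, and their part in the mitotic results was not tested. Of all genes tested, 15.1%, 18.1% and 9.76% were called higher and 12.7%, 15.7% and 8.56% lower at 2 weeks, at 4 weeks and with MYC. In the MYC livers the 10 erythroid markers summed to 584, 2618 and 1295 CPM, the same order as the summed mitotic genes (1041, 3860 and 1754 CPM), against 95.6 and 118 CPM in the controls. Of the 10, 7 were called higher with MYC, and none was at 0 counts there. In the YAP livers the erythroid markers summed to 26.1 to 63.1 CPM in induced libraries against 87.8 and 91.5 CPM in controls, and none of the 10 was called higher. The 8 neutrophil markers were all called higher with MYC (821, 1384 and 683 CPM against 3.98 and 3.74 CPM), highest in replicate 2 as the mitotic genes were but lowest in replicate 3. With YAPS127A 4 of the 8 were called higher at 2 weeks (16.9 and 188 CPM against 2.44 to 4.83 CPM) and 6 at 4 weeks (51.0 to 147 CPM). At 2 weeks of YAPS127A, 8 of 9 monocyte and macrophage markers were called higher (940 to 988 CPM against 283 to 354 CPM), and at 4 weeks 7 of 9. Of 8 Kupffer cell markers, 5 were called higher at 2 weeks (1271 to 1713 CPM against 276 to 296 CPM), 3 at 4 weeks and 4 with MYC. Of 10 skeletal muscle markers, 8 were called higher at 2 weeks (1073 and 1142 CPM against 182 to 201 CPM), and 6 and 7 of the 10 were at 0 counts in the controls. Cholangiocyte markers were called higher for 3 of 7 at 2 weeks (644 and 1302 CPM against 150 to 159 CPM) and for 5 of 7 at 4 weeks. YAP 4-week replicate 1, with the highest mitotic sum of its group (1205 CPM against 253 and 412 CPM), had the lowest cholangiocyte marker sum of that group, 504 CPM against 3195 and 3306 CPM. Its hepatocyte marker sum was 58840 CPM against 28850 and 28650 CPM. Hepatocyte markers were present in all 12 libraries, with none of the 10 at 0 counts, and 3 of the 10 were called lower at 2 weeks, 6 at 4 weeks and 5 with MYC.

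Other genes of the same processes were counted from lists, beside 15.1%, 18.1% and 9.76% of all genes called higher at 2 weeks, at 4 weeks and with MYC. Of 30 further spindle, motor and centrosome genes, 23 rose at 2 weeks, 21 at 4 weeks and 16 with MYC, and none was lower, with log2 medians of 3.59, 3.38 and 2.10. Cit, the citron kinase of the midbody, had the smallest adjusted p of that list each time (log2 3.92, SE 0.40, 4.14, SE 0.39 and 3.22, SE 0.37). Of 11 condensin and chromosome structure genes, 8, 7 and 7 rose, with log2 medians of 3.03, 2.45 and 2.21. Ncaph, a condensin subunit, rose in all 3 comparisons (log2 3.03, SE 0.60, 2.45, SE 0.57 and 2.26, SE 0.51). Of 26 other kinetochore and centromere genes, 14, 12 and 9 rose, with medians of 2.10, 1.66 and 1.37. Cenph, an inner kinetochore subunit, rose by log2 4.82 (SE 0.90) with MYC.

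Genes of entry, checkpoint and exit outside the 40 were called in both directions. Of these 36, 14 rose and 2 fell at 2 weeks, 17 rose and 1 fell at 4 weeks, and 10 rose and 1 fell with MYC, with log2 medians of 0.53, 0.62 and 0.67. Their shares called higher were 38.9%, 47.2% and 27.8%, beside the 15.1%, 18.1% and 9.76% of all genes. Pkmyt1, a kinase that inhibits CDK1, rose by log2 5.76 (SE 0.90) and 5.94 (SE 0.88) with YAPS127A. Cdc25a, a phosphatase that activates cyclin-dependent kinases, rose by 1.37 (SE 0.29), 1.36 (SE 0.27) and 2.31 (SE 0.27). Pttg1, securin, fell at both YAP times (log2 -1.19, SE 0.37 and -0.93, SE 0.33), Cdc14b fell at 2 weeks (log2 -1.36, SE 0.34), and Mad2l2 fell with MYC (log2 -1.95, SE 0.29). Of 20 regulators from the MuvB, MYB, E2F and pocket protein families, 4 rose and 1, Rbbp4, fell at 2 weeks, 4 rose at 4 weeks and 5 rose with MYC. At 20%, 20% and 25% of the list, the YAP counts were near the 15.1% and 18.1% of all genes, and the MYC share stood beside 9.76%. Mybl2, which encodes B-MYB, rose by log2 4.08 (SE 1.18) at 4 weeks and 4.57 (SE 0.87) with MYC. Mybl1, its relative A-MYB, rose by log2 2.93 (SE 0.59) at 2 weeks and 2.19 (SE 0.55) at 4 weeks.

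**Figure D5:**
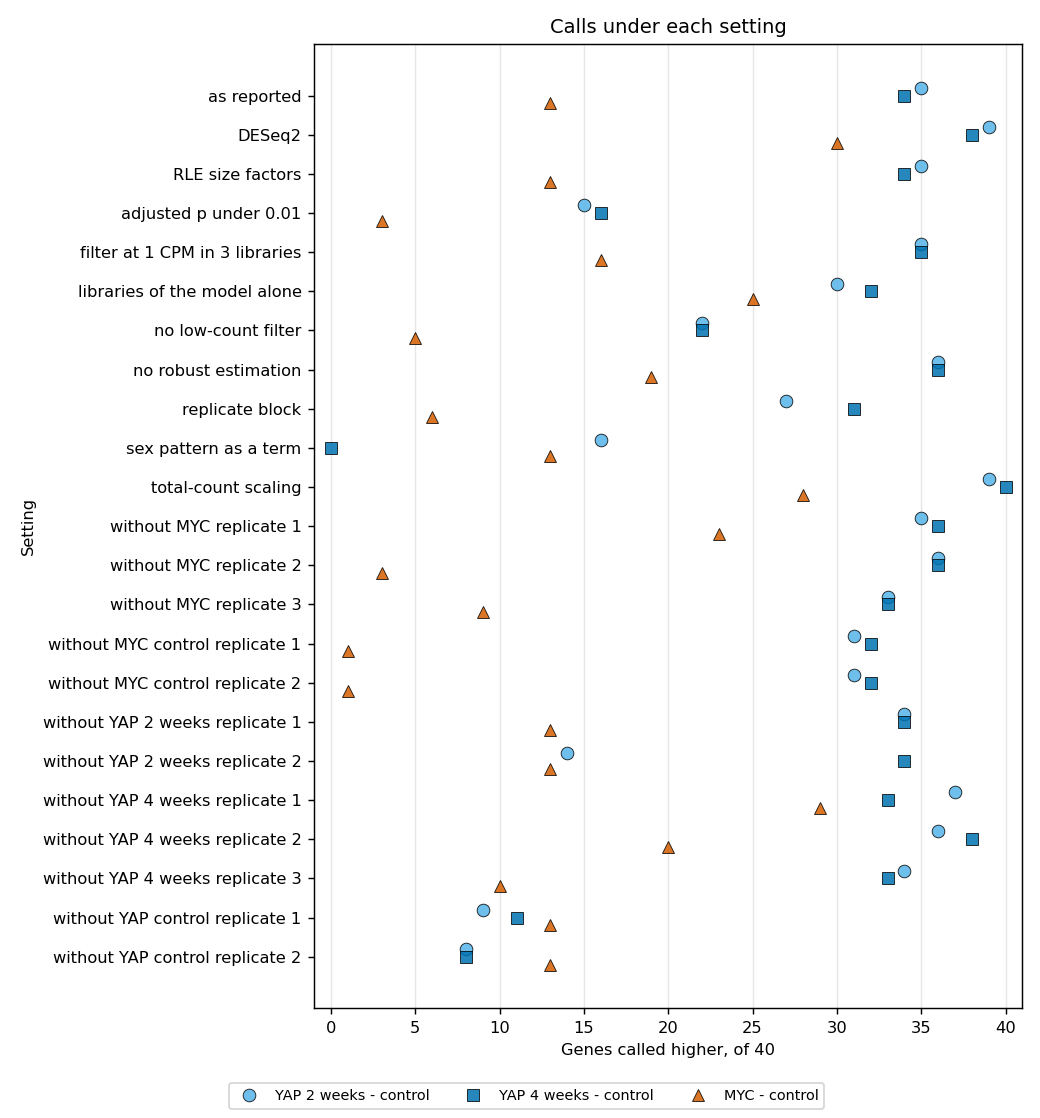
Number of the 40 genes called higher under each setting (rows) for 2 weeks of YAPS127A (circles), 4 weeks of YAPS127A (squares) and MYC (triangles), each against its own controls. The top row holds the counts as reported (35, 34 and 13), and the counts drop most without a YAP control (8 to 11), without a MYC control (1) and, at 4 weeks, with the sex pattern as a term (0).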

How the data were processed

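Total liver RNA in 12 mouse libraries of 5 groups was sequenced. The deposited values are raw counts per gene for each library. Per the submitters' processing notes, the tools were Trim Galore 0.4.1, HISAT2 2.1.0, featureCounts 1.6.3 and DESeq2 1.20.0, with the build GRCm38 (mm10); the strand setting of the counting and the annotation were not given in the sources used here. Libraries were grouped by their titles. The deposited counts were tested with edgeR 4.0.16 (R 4.3.3; filterByExpr, TMM factors, robust quasi-likelihood fit, 1 mean per group over all 12 libraries, 7 residual degrees of freedom), which kept 17964 genes. All tests were two-sided, with Benjamini-Hochberg adjustment over those genes in each of 7 contrasts. DESeq2 1.42.0, other filters and scalings, a replicate block, the sex pattern and each library left out were tried as alternatives, and the fit was tested on simulated data. Intervals and the floor of 3 counts cover counting error only. Gene positions and exon lengths came from GENCODE on GRCm38 by symbol, and 46338 of 48576 symbols matched. The 40 genes, the other gene lists and the genes named were chosen with earlier results of these data known. Values in every library are given for genes fixed by role and for the extremes and exceptions of a count; of the other lists, genes with the smallest p and those that fell are named. Medians and level ratios without each library were added after seeing the data. The result of a single marker gene is not reported here.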

Additional observations from a re-analysis of the deposited data

How the results depend on the processing

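Of the 40 genes, none was called lower in the YAP or MYC comparisons under any of the alternatives run. Some comparisons of mean level between the models did reverse. Without YAP 4-week replicate 1, Ttk and Ect2 were higher with MYC than at 4 weeks (Ect2 ratio 1.65, against 0.570 with all libraries). Without MYC replicate 2, Aurkb, Cdc20, Foxm1, Racgap1, Anln and Melk fell below their 2-week means, and Foxm1 and Melk below their 4-week means. Requiring an adjusted p under 0.01 left 15, 16 and 3 genes called (2 weeks, 4 weeks, MYC). Without a low-count filter the counts were 22, 22 and 5, and 2 for the MYC controls against the YAP controls. With the sex pattern as a term they were 16 at 2 weeks and 0 at 4 weeks. For MYC the count was 30 with DESeq2, 28 with total-count scaling and 25 from the libraries of the MYC model alone. DESeq2 called 27 between the controls and 3 for the MYC change against each YAP change. Leaving out each library gave 8 to 37 at 2 weeks, 8 to 38 at 4 weeks, 1 to 29 with MYC, 0 to 10 between the controls, 0 to 1 for MYC against 4 weeks and 0 to 4 against 2 weeks. Over the same leave-outs, chosen for these values after seeing the data, the median log2 fold change ran from 3.10 to 4.28 at 2 weeks, 2.85 to 4.13 at 4 weeks and 1.59 to 2.46 with MYC. The median ratio of the MYC to the YAP level ran from 1.6 to 3.87 at 2 weeks and 1.65 to 4.37 at 4 weeks, and the genes with a higher mean with MYC from 32 to 38 and 36 to 40. The lone library left in a group is then assumed to vary like the others. Same-numbered libraries did not deviate together (correlations of -0.032 to 0.082), so the numbers are not taken to pair them; with the replicate block 27, 31 and 6 genes were called, and 0 in each of the other 4 comparisons. Incenp with MYC, and Bub1, Bub1b, Foxm1, Incenp and Ttk at 2 weeks, kept their call at 0.05 under every alternative fit. The few counts of these genes in the YAP controls limit the precision of the YAP fold changes.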
